A study of Homo sapiens with 12 samples.

Results

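The genes described here are 10 targets of the extracellular signal-regulated kinase (ERK) pathway that feed back on it or carry its output to the nucleus: the dual-specificity phosphatases DUSP4, DUSP5 and DUSP6, the Sprouty genes SPRY1, SPRY2 and SPRY4, the Sprouty-related genes SPRED1 and SPRED2, and the ETS transcription factors ETV4 and ETV5. They were chosen by name, by a rule that uses no measured value but with earlier results of these data known, and all 10 were found among the 58051 genes of the count files. The RNA came from FaDu, a line from a hypopharyngeal squamous cell carcinoma kept in EMEM, and Cal27, a line from a tongue squamous cell carcinoma kept in DMEM. Each line was sequenced as parental cells, as an afatinib-resistant model (AfaR) and as an erlotinib-resistant model (ErlR), with 2 biological replicates in each of the 6 groups. Afatinib blocks the ERBB family of receptors irreversibly and erlotinib blocks EGFR. Every group carries the genotype label WT. All samples carry the same batch label, although the libraries fell into 2 sets by depth, as given below. Per the study's methods, each resistant model was selected by raising the drug dose step by step, was kept under drug, and was cultured without drug for the last day before experiments, so each is a single derived stock with no stated cloning. The line differs together with its medium, and the parts of these cannot be told apart.

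ERK signalling limits itself. Growth factor receptors activate RAS, RAF, MEK and ERK in turn, and active ERK switches on genes whose products dampen the same chain. DUSP6 removes the activating phosphates from ERK in the cytoplasm and DUSP4 and DUSP5 act in the nucleus, the Sprouty proteins interfere between receptor and RAS or RAF, and the SPRED proteins bring the RAS inhibitor neurofibromin to the membrane. ETV4 and ETV5 are PEA3-type ETS factors that are induced through receptor and ERK signalling. For this reason the mRNA levels of such genes are widely used as a readout of ERK output.

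Gene counts summed to 16334937 in the shallowest library and 23399259 in the deepest. The FaDu parental and AfaR libraries had 20156109 counts or more, and the FaDu ErlR and all Cal27 libraries 16689855 or fewer. The share of reads on ERCC spike-ins was also higher in every FaDu parental and AfaR library than in any other. FaDu ErlR against FaDu parental or AfaR cells, and Cal27 against FaDu parental cells, thus compare libraries across this split. The part of the split in these differences was not tested. Levels are given as CPM, counts scaled to the TMM-adjusted library size over the 12 libraries, or as TPM, scaled by gene length as well, where genes are compared with each other. Differences are log2 differences from edgeR's quasi-likelihood test in 1 fit per line, and a gene was called at a Benjamini-Hochberg adjusted p under 0.05 over all genes tested. Intervals are 95% intervals of the log2 difference. Each fit with a library left out called a smaller share of all genes than the fit with all libraries. A call lost in such a fit therefore does not by itself set a gene apart. All 10 genes passed the filter on low counts in both lines. Scaling to the ERCC spike-ins in place of TMM shifted the median log2 difference of all genes by 0.58 between the parental lines, 0.49 in FaDu ErlR and 0.18 in FaDu AfaR, and by 0.03 or less in the Cal27 models, so the FaDu values below are relative to the bulk of expressed genes. Under spike-in scaling 2093 genes were called higher and 220 lower in FaDu AfaR, against 1563 and 1131 with TMM, and 5655 higher and 92 lower in FaDu ErlR, against 389 and 242. With upper-quartile scaling the FaDu AfaR calls were 1752 higher and 690 lower.

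DUSP5, DUSP6 and ETV4 were lower than in parental cells in both afatinib-resistant models. In FaDu AfaR these were the 3 called genes of the 10, with none called higher, where 17.9% of all genes tested were called in either direction and 7.49% lower. Of these 3 FaDu calls, that of DUSP5 alone held whichever library was left out. Cal27 AfaR had the same 3 genes lower and SPRY2 and ETV5 higher, against 37.6% of all genes called (19.5% higher and 18.2% lower). The erlotinib-resistant models differed from this. In Cal27 ErlR 9 of the 10 genes were called higher and 0 lower, against 27.6% of all genes called and 12.3% called higher. Of these, DUSP5, DUSP6, SPRY4 and ETV5 were over 1 on the log2 scale. No gene was lower there, and none higher in FaDu AfaR, at an unadjusted p under 0.05 (0 genes in each case) or with DESeq2 (0 genes in each case). FaDu ErlR had SPRY2 higher and DUSP5 lower, against 4.18% of all genes called (2.58% higher and 1.6% lower). With spike-in scaling the FaDu ErlR count was 5 higher and 0 lower, where 38.1% of all genes were called, and DUSP5 was no longer called there (log2 difference -0.22, adjusted p = 0.284). The 10 genes had a median log2 difference of 0.93 in Cal27 ErlR, 0.12 in Cal27 AfaR, 0.21 in FaDu ErlR and -0.61 in FaDu AfaR, and the median over all genes tested lay between -0.03 and 0.00 in the 4 comparisons. The models of a line share its parental libraries, and in such bulk RNA fewer expressing cells and less RNA per cell cannot be told apart.

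With a log2 change over 1 required as well, 3 genes stayed called in FaDu AfaR (7.43% of all genes tested) and 1 in FaDu ErlR (2.05%). In Cal27, 3 stayed called in AfaR (19.6%) and 4 in ErlR (13.5%). At an unadjusted p under 0.05 the counts were 5 in FaDu AfaR, which added DUSP4 and SPRY4 (35.2% of all genes), 3 in FaDu ErlR, which added SPRED2 (21.2%). In Cal27 the counts were 5 for AfaR (47.2%) and 9 for ErlR (40.2%).

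**Figure D1:**
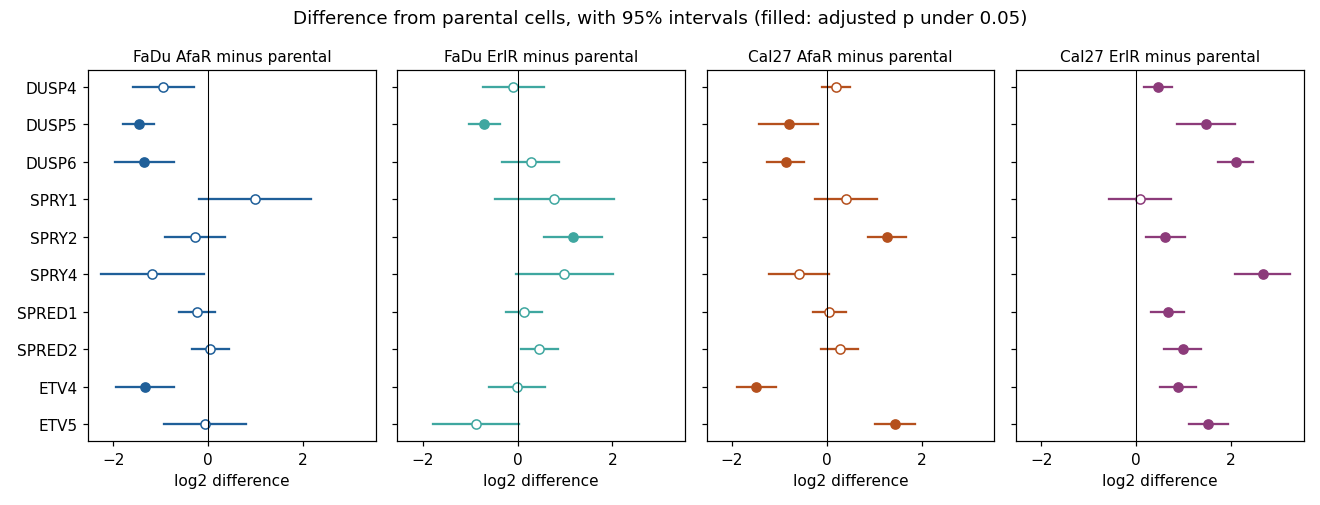
Log2 difference of each gene from the parental cells of its line (x axis) in the 4 resistant models, with points for the edgeR estimates, lines for 95% intervals and filled points for an adjusted p under 0.05. Of the 10 genes, 9 are filled and right of 0 in Cal27 ErlR, and DUSP5, DUSP6 and ETV4 are filled and left of 0 in both AfaR panels.

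DUSP5 was the phosphatase gene called in all 4 models, although its calls in FaDu ErlR and Cal27 AfaR did not hold when single libraries were left out. It lies on chromosome 10 from 110497838 to 110511544 on the plus strand of GRCh38. Its level in the FaDu replicates was 51.7 and 54.7 CPM in parental, 19.3 and 19.8 CPM in AfaR and 29.2 and 36.9 CPM in ErlR cells. The 3 FaDu groups did not overlap, with parental cells at the top and AfaR at the bottom. The difference was -1.46 in FaDu AfaR (SE 0.14, adjusted p = 0.00107) and -0.70 in FaDu ErlR (SE 0.14, adjusted p = 0.0327). The FaDu ErlR call was lost whichever of the 4 FaDu parental and ErlR libraries was left out (-0.88 to -0.54). In Cal27 the replicates gave 20.3 and 35.2 CPM in parental, 12.3 and 19.6 CPM in AfaR and 80.8 and 76.1 CPM in ErlR cells. Both ErlR libraries were far above the rest, and the higher AfaR library was just below the lower parental one. DUSP5 rose in Cal27 ErlR (1.47, SE 0.27, adjusted p = 0.00421). Its fall in Cal27 AfaR (-0.80, SE 0.28, adjusted p = 0.0452) was -0.35 and no longer called without Cal27 parental replicate 2, and not called without Cal27 AfaR replicate 1 (-0.50).

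DUSP6, the cytoplasmic ERK phosphatase, moved in opposite directions in the Cal27 models. The gene lies on chromosome 12 from 89347232 to 89353271 on the minus strand. Cal27 parental cells had 19.3 and 15.2 CPM, Cal27 AfaR 8.64 and 10.3 CPM and Cal27 ErlR 77.2 and 72.7 CPM. The 3 groups were apart, in the order AfaR, parental, ErlR. DUSP6 fell in Cal27 AfaR (-0.86, SE 0.17, adjusted p = 0.00424) and rose 4.27-fold in Cal27 ErlR (2.09, SE 0.17, adjusted p = 8.33e-05). FaDu parental cells had 43.5 and 52.2 CPM and FaDu AfaR 19.3 and 18.9 CPM, a difference of -1.35 (SE 0.27, adjusted p = 0.0141) whose call was lost without either parental library or without FaDu AfaR replicate 2 (-1.48 to -1.21 over the fits). The FaDu ErlR libraries stood on either side of the parental ones, at 38.6 and 78.5 CPM, with a difference of 0.28 and an interval of -0.32 to 0.88. An antisense gene, ENSG00000274021, overlaps 40.5% of the counted bases of DUSP6 and had between 2 and 23 counts per library, and the strand setting of the counting is not given in the sources used here, so reads of the 2 genes cannot be told apart in the overlap.

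DUSP4, an inducible nuclear phosphatase on chromosome 8 (29333064 to 29350668, minus strand), had its widest gap between the parental lines. FaDu parental cells had 17.5 and 17.9 CPM and Cal27 parental cells 86.5 and 99.6 CPM. Cal27 parental cells were higher by 2.39 on the log2 scale (SE 0.24, adjusted p = 4.25e-06), where 55.6% of all genes were called between the parental lines. Within Cal27, AfaR libraries had 106 and 106 CPM and ErlR libraries 139.7 and 121 CPM. The AfaR values lay above the parental ones by 0.19 (adjusted p = 0.294) and the ErlR values by 0.46 (adjusted p = 0.0322), of which the second was called. That call was lost without either Cal27 parental library or without Cal27 ErlR replicate 1 (0.36 to 0.59 over the fits). In FaDu AfaR both libraries, at 10.9 and 7.73 CPM, were below the parental ones, and the difference of -0.95 just missed the threshold (adjusted p = 0.0503). FaDu ErlR had 11.6 and 22.1 CPM, again on either side of the parental values.

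**Figure D2:**
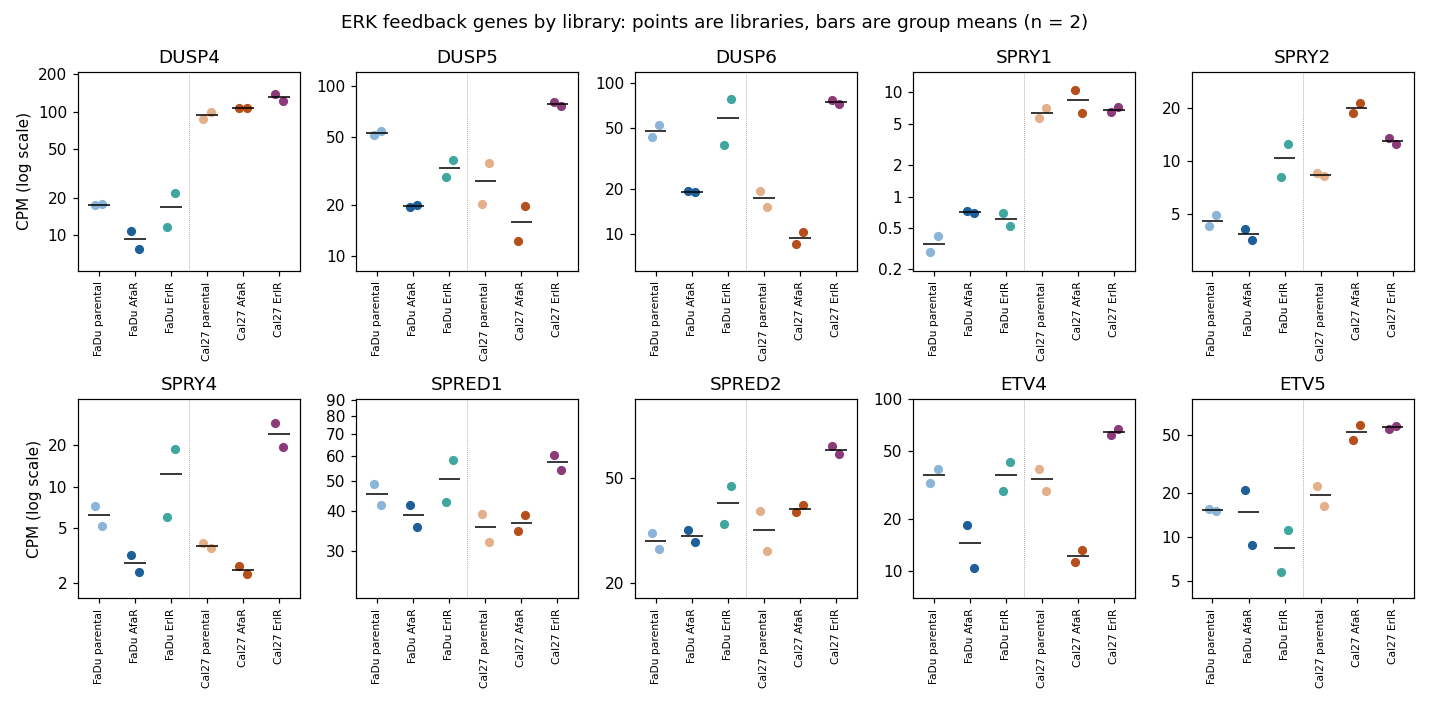
CPM (y axis, log scale with its own range for each gene) of the 10 genes in the 12 libraries, with points for libraries and bars for group means (n = 2). DUSP6 ranges from 8.64 CPM in Cal27 AfaR to 78.5 CPM in FaDu ErlR, and the SPRY4 points of Cal27 ErlR (19.4 and 29.0 CPM) stand far above those of Cal27 parental cells (3.56 and 3.90 CPM).

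SPRY2 and SPRY4 both rose in Cal27 ErlR, whereas in Cal27 AfaR SPRY2 rose and SPRY4 was not called. SPRY4 (chromosome 5, 142310427 to 142326455, minus strand) had 3.90 and 3.56 CPM in Cal27 parental, 2.65 and 2.32 CPM in AfaR and 29.0 and 19.4 CPM in ErlR cells. The groups did not overlap, and both ErlR libraries stood far above the others. Its rise in Cal27 ErlR was the largest of the 10 genes in the 4 models, at 6.37-fold (2.67, SE 0.26, adjusted p = 0.000203), and its difference in Cal27 AfaR was -0.58 (adjusted p = 0.131). In FaDu the libraries had 7.28 and 5.15 CPM in parental, 3.20 and 2.39 CPM in AfaR and 6.01 and 18.9 CPM in ErlR cells. AfaR was below parental in both libraries, with a difference of -1.18 that was not called (interval -2.26 to -0.10, adjusted p = 0.115). In FaDu ErlR replicate 1 lay among the parental values and replicate 2 far above them, and the difference was not called (0.99, adjusted p = 0.249).

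SPRY2 (chromosome 13, 80335976 to 80340951, minus strand) was called higher in 3 of the 4 models and lower in none, with the call in Cal27 AfaR alone holding whichever library was left out. Cal27 parental cells had 8.56 and 8.23 CPM, Cal27 AfaR 18.8 and 21.5 CPM and Cal27 ErlR 13.5 and 12.6 CPM. Here AfaR was the highest group, with no overlap among the 3. The rise was 1.27 in AfaR (SE 0.18, adjusted p = 0.000651) and 0.61 in ErlR (SE 0.18, adjusted p = 0.0330). FaDu libraries had 4.27 and 4.94 CPM in parental, 4.12 and 3.58 CPM in AfaR and 8.18 and 12.6 CPM in ErlR cells. In Cal27 ErlR the call was lost without any 1 of the 4 parental and ErlR libraries (0.57 to 0.70). FaDu ErlR was above the other FaDu groups in both libraries (1.16, SE 0.27, adjusted p = 0.0481), and this call was lost without FaDu ErlR replicate 2 (0.82) and without either FaDu parental library (1.06 and 1.27). The FaDu AfaR difference was -0.28, with an interval of -0.90 to 0.35.

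SPRY1 (chromosome 4, 123396795 to 123403760, plus strand) was the gene of the 10 called in none of the models, with unadjusted p-values from edgeR of 0.793 and 0.191 in Cal27 ErlR and AfaR and of 0.197 and 0.0942 in FaDu ErlR and AfaR. FaDu libraries held between 6 and 17 counts of it, or 0.291 and 0.416 CPM in parental, 0.728 and 0.699 CPM in AfaR and 0.703 and 0.523 CPM in ErlR cells. In Cal27 the libraries had 5.65 and 7.06 CPM in parental, 10.5 and 6.33 CPM in AfaR and 6.45 and 7.21 CPM in ErlR cells. Cal27 parental cells were above FaDu parental cells by 4.15 on the log2 scale (SE 0.39, adjusted p = 2.53e-06). At this depth a FaDu AfaR difference of 0.99 had an interval of -0.20 to 2.17.

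SPRY1 and SPRY2 are shown with the 250 bases before a RefSeq start site (GRCh38.p14), because SPRY2 was called in the most models of the Sprouty genes and SPRY1 in none, and because these windows hold no annotated exon. For each gene the window is that of its furthest upstream RefSeq start. RefSeq windows matched 6 of the 10 genes, SPRY1, SPRY2, SPRY4, SPRED1, SPRED2 and DUSP6, with 10 windows in all. The words searched on both strands were CCGGAA, the core bound by ETS factors such as ETV4 and ETV5, and TGANTCA, the AP-1 site. Capitals mark a CCGGAA match, and neither window below holds an AP-1 match. The first window is chr13:80341127-80341376, read on the minus strand, and the second is chr4:123396545-123396794 on the plus strand.
SPRY2: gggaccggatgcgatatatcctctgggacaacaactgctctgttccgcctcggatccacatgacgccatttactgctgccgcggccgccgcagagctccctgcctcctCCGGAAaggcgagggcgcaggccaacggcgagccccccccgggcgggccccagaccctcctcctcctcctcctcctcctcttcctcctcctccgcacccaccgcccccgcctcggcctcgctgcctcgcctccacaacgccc
SPRY1: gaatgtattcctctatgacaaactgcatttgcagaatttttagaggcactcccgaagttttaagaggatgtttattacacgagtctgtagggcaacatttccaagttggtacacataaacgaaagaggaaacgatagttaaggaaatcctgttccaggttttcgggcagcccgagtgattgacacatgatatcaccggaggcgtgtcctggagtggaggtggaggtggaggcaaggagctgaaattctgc
The SPRY2 match starts 142 bases before the start site. The 2 other SPRY2 windows hold no match and the other SPRY1 window holds 1, so these words do not set the genes apart. Of the 10 windows, 2 held the ETS word (1 at SPRY2 and 1 at the second SPRY1 start, chr4:123398136-123398385) and 0 held the AP-1 word, where 14.5% and 6.57% of all 35116 RefSeq windows of this length held them.

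The SPRED genes, whose products act on RAS through neurofibromin, were called in Cal27 ErlR, where both rose, and in no other model. SPRED2 (chromosome 2, 65310851 to 65432637, minus strand) had 37.3 and 26.3 CPM in Cal27 parental, 37.2 and 39.3 CPM in AfaR and 66.1 and 61.4 CPM in ErlR cells. SPRED1 (chromosome 15, 38252326 to 38357249, plus strand) had 39.3 and 31.9 CPM, 34.7 and 39.1 CPM and 60.4 and 54.1 CPM in the same order. For both genes the AfaR libraries overlapped the parental ones and the ErlR libraries were above them. The rise in Cal27 ErlR was 0.98 for SPRED2 (SE 0.17, adjusted p = 0.00353) and 0.66 for SPRED1 (SE 0.15, adjusted p = 0.0119). The SPRED1 call was lost without Cal27 parental replicate 2 (0.54) and without Cal27 ErlR replicate 1 (0.59). In Cal27 AfaR the intervals were -0.12 to 0.65 for SPRED2 and -0.29 to 0.40 for SPRED1. FaDu parental libraries had 31.0 and 26.8 CPM of SPRED2 and 48.8 and 41.7 CPM of SPRED1. FaDu AfaR had 31.8 and 28.6 CPM of SPRED2 and 42.0 and 35.6 CPM of SPRED1, and FaDu ErlR 33.4 and 46.5 CPM and 42.9 and 58.1 CPM. Neither gene was called in a FaDu model, with log2 differences from -0.24 (SPRED1 in AfaR) to 0.46 (SPRED2 in ErlR, adjusted p = 0.168).

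ETV4 and ETV5, the related ETS factors, went in opposite directions in Cal27 AfaR. ETV4 (chromosome 17, 43527844 to 43579620, minus strand) had 39.4 and 29.1 CPM in Cal27 parental, 11.3 and 13.2 CPM in AfaR and 62.0 and 66.7 CPM in ErlR cells. ETV5 (chromosome 3, 186046308 to 186110318, minus strand) had 22.3 and 16.4 CPM, 45.9 and 58.6 CPM and 54.7 and 57.9 CPM in the same groups. ETV4 was lowest in AfaR and highest in ErlR, whereas ETV5 was high in both resistant models, whose libraries overlapped. In Cal27 AfaR ETV4 fell (-1.48, SE 0.18, adjusted p = 0.000274) and ETV5 rose (1.44, SE 0.18, adjusted p = 0.000376). In Cal27 ErlR both rose, ETV4 by 0.88 (SE 0.17, adjusted p = 0.00532) and ETV5 by 1.52 (SE 0.18, adjusted p = 0.000669).

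FaDu parental cells had 32.6 and 39.5 CPM of ETV4, FaDu AfaR 18.5 and 10.4 CPM and FaDu ErlR 29.2 and 42.9 CPM. Both AfaR libraries were below the parental ones, and the ErlR libraries lay on either side of them. The ETV4 difference was -1.34 in FaDu AfaR (SE 0.27, adjusted p = 0.0135) and -0.01 in FaDu ErlR (interval -0.60 to 0.58). The ETV4 call in FaDu AfaR was lost without FaDu AfaR replicate 2 (-0.98) and without either FaDu parental library (-1.48 and -1.20). ETV5 had 15.7 and 15.1 CPM in FaDu parental, 20.9 and 8.80 CPM in AfaR and 5.75 and 11.2 CPM in ErlR cells. The AfaR libraries of ETV5 lay on either side of the parental ones and the ErlR libraries below them, and neither difference was called (-0.07, adjusted p = 0.911, and -0.87, adjusted p = 0.249). Of the counted bases, 1.9% of ETV4 and 2.8% of ETV5 are shared with another gene.

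Compared per length, DUSP5 was the most abundant of the 10 transcripts in every FaDu group, with 72.7 ± 2.27 TPM (SD, n = 2) in parental, 29.3 ± 0.943 TPM in AfaR and 45.4 ± 6.59 TPM in ErlR cells. SPRY1 was the least abundant in the 3 FaDu groups, at 0.319 to 0.705 TPM. In Cal27 the order was another. DUSP4 was highest in Cal27 parental (50.1 ± 4.59 TPM) and AfaR cells (60.3 ± 4.12 TPM), with SPRY4 lowest in both (2.46 ± 0.179 and 1.73 ± 0.281 TPM). DUSP5 led in Cal27 ErlR, at 108 ± 2.05 TPM. By group means, DUSP6 was highest in Cal27 ErlR (58.1 ± 1.10 TPM), followed by FaDu ErlR (45.2 ± 20.9), FaDu parental (37.0 ± 4.43), FaDu AfaR (16.1 ± 0.0388), Cal27 parental (14.6 ± 2.60) and Cal27 AfaR (8.40 ± 0.472), and the first 3 of these do not stand apart beyond the spread of the FaDu ErlR libraries.

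The resistant models of a line were also compared with each other. FaDu AfaR was lower than FaDu ErlR in 5 of the 10 genes and higher in none, where 15.7% of all genes were called, 7.65% as lower. The 5 were DUSP5 (-0.76, adjusted p = 0.0107), DUSP6 (-1.62, 0.00734), SPRY2 (-1.44, 0.0109), SPRY4 (-2.16, 0.0189) and ETV4 (-1.33, 0.0139). Of the 5, 4 were over 1 in size (5.94% of all genes), and 8 of the 10 genes had an unadjusted p under 0.05 (33% of all genes). No gene of the 10 was called there without FaDu AfaR replicate 2, and without FaDu ErlR replicate 2 DUSP6 alone was called, with SPRY4 at -1.12, DUSP5 at -0.59, SPRY2 at -1.10 and ETV4 at -1.03. Cal27 AfaR was lower than Cal27 ErlR in 6 genes and higher in SPRY2, against 49.6% of all genes (26.5% higher and 23.2% lower). Of these 7 genes 4 were over 1 in size (27.1% of all genes), and 7 had an unadjusted p under 0.05 (55.9%). The widest gaps were in SPRY4 (-3.25, SE 0.27, adjusted p = 2.07e-05), DUSP6 (-2.96, SE 0.18, adjusted p = 3.74e-06), ETV4 (-2.37, SE 0.18, adjusted p = 1.41e-05) and DUSP5 (-2.28, SE 0.28, adjusted p = 0.000193). SPRED1 and SPRED2 were lower by less (-0.61 and -0.71), SPRY2 was higher by 0.65, and ETV5 differed by -0.08 with an interval of -0.48 to 0.31. Leaving out single libraries ended the calls of SPRY2 (without Cal27 AfaR replicate 2 or ErlR replicate 2), SPRED1 (without AfaR replicate 1 or ErlR replicate 1) and SPRED2 (without AfaR replicate 1), with ranges of 0.55 to 0.74, -0.72 to -0.53 and -0.79 to -0.66.

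Whether a model's difference from its parental cells (its effect) varied between the lines was tested as an interaction in 1 fit over 12 libraries. Each model is a single derived stock, so this compares these stocks. For AfaR the FaDu effect was below the Cal27 effect in DUSP4 (-1.12, adjusted p = 0.0333), SPRY2 (-1.52, 0.00573) and ETV5 (-1.49, 0.0475), with 18.6% of all genes called and 8% called lower. All 3 were over 1 in size (12.3% of all genes), and 3 had an unadjusted p under 0.05 (31.8%). For DUSP5, DUSP6 and ETV4, which were lower in both AfaR models, the interaction was not called, with intervals of -1.39 to 0.11, -1.27 to 0.34 and -0.62 to 0.95. For ErlR the FaDu effect was below the Cal27 effect in DUSP5 (-2.19, adjusted p = 0.00153), DUSP6 (-1.83, 0.00482) and ETV5 (-2.40, 0.00614), against 18.6% of all genes called and 8.8% called lower. All 3 were over 1 in size (10.9% of all genes), and 6 genes had an unadjusted p under 0.05 (33.1%). SPRY4 had an ErlR interaction of -1.70 that was not called (adjusted p = 0.0635). Between the parental lines 5 of the 10 genes were called, where 28.7% of all genes were higher in Cal27 and 26.8% lower. Of these, 3 were over 1 in size (31.6% of all genes), and 5 had an unadjusted p under 0.05 (60.7%). Cal27 parental cells were higher in DUSP4, SPRY1 and SPRY2 (0.87, adjusted p = 0.00602) and lower in DUSP5 (-0.94, 0.00515) and DUSP6 (-1.47, 0.000404). The DUSP5 call was lost without Cal27 parental replicate 1 (-0.60) and the SPRY2 call without FaDu parental replicate 1 (0.75). With spike-in scaling DUSP5 was at -0.35 and not called, and ETV5 was called higher in Cal27 parental cells (0.90, adjusted p = 0.0163).

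**Figure D3:**
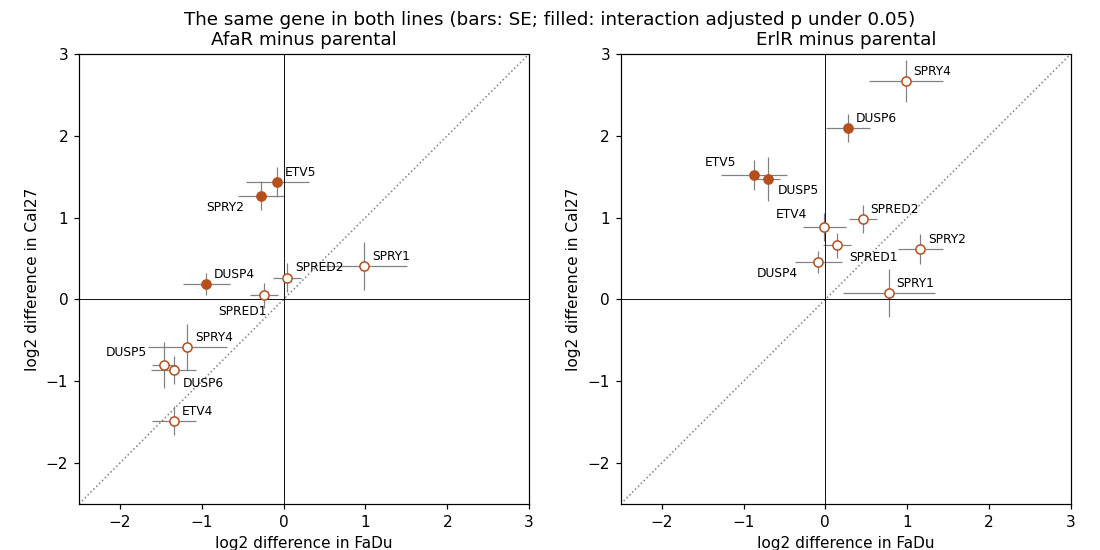
Log2 difference from parental cells in FaDu (x axis) and in Cal27 (y axis) for AfaR (left) and ErlR (right), with SE bars, a dotted line of equal effects and filled points for a called interaction. DUSP5, DUSP6 and ETV4 lie below 0 on both axes for AfaR, and the filled genes DUSP5, DUSP6 and ETV5 lie well above the dotted line for ErlR.

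Replicates of 1 group did not always sit together. In FaDu ErlR, 9 of the 10 genes were higher in the library labelled replicate 2 than in replicate 1, with a median log2 ratio of 0.55, where 50.4% of 14760 expressed genes were higher and their median was 0.00. Of 18 other ERK output genes, 13 were higher in the same library, with a median of 0.52. FaDu AfaR showed the reverse, with 1 of the 10 genes higher in replicate 2 and a median of -0.20. In the other groups from 3 to 8 genes were higher in replicate 2, with medians from -0.20 to 0.18. Of the 18 output genes, 15 were higher in replicate 2 in Cal27 AfaR (median 0.27) and 5 in FaDu AfaR (-0.23). In the remaining groups 6 to 8 were higher. The part of this spread in the FaDu ErlR and AfaR results was not tested.

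Cal27 AfaR also differed from Cal27 parental cells in epithelial and mesenchymal markers. All 7 squamous epithelial markers were lower, with a median of -2.84, and their summed level ran from 538 to 662 CPM against 3355 to 4639 CPM in Cal27 parental cells and 4697 to 4743 CPM in Cal27 ErlR. Of 9 fibroblast or mesenchymal markers 6 could be tested and 4 were higher, with a summed level of 1450 to 1584 CPM against 53.2 to 63.6 CPM in parental cells and 30.7 to 32.8 CPM in ErlR. VIM, the mesenchymal filament vimentin, made up most of it, at 1123 and 1269 CPM against 23.0 and 21.8 CPM in parental cells, while DCN and PDGFRA had a mean under 0.1 CPM in Cal27 AfaR. In FaDu the summed epithelial level was 5618 to 9173 CPM in parental and 5710 to 10374 CPM in AfaR cells. In FaDu ErlR it was 4876 to 5780 CPM. KRT5 made up most of the FaDu epithelial sum, at 3770 and 7095 CPM in parental and 4292 and 8613 CPM in AfaR cells. In FaDu AfaR CDH1 was called higher (0.69, adjusted p = 0.0154) and SFN lower (-0.55, adjusted p = 0.0260). The other 5 epithelial markers were not called there. The FaDu mesenchymal sum stayed between 22.5 and 31.2 CPM. The 4 leukocyte markers summed to between 3.02 and 6.36 CPM over all libraries, with CD3E and CD79A at or near 0, and the 3 endothelial markers to between 30.1 and 37.4 CPM in Cal27 parental and AfaR cells and between 2.49 and 20.3 CPM in the other groups. Cal27 ErlR differed in markers as well. CDH5, an endothelial cadherin, had 30.3 and 30.7 CPM in Cal27 parental, 35.8 and 28.5 CPM in AfaR and 1.09 and 4.16 CPM in ErlR cells, and fell in ErlR (-3.55, adjusted p = 0.000510). In the same model COL1A1 (-2.41), COL1A2 (-1.51) and PDGFRB (-2.39) of the mesenchymal markers, the keratin KRT14 (-3.19) and the cadherin CDH1 (-0.68) of the epithelial markers and CD68 (-1.31) of the leukocyte markers were called lower, and TP63 (0.75) was called higher. The part of the marker differences in the rises of Cal27 ErlR was not tested. The part of the marker differences in the ETV5 and SPRY2 rises and in the DUSP5, DUSP6 and ETV4 falls of Cal27 AfaR was not tested.

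The other genes of the pathway were taken from lists chosen by name. A gene named as the largest rise or fall of a list is the largest among its called genes. Of 18 other ERK output genes, 11 were called higher and 2 lower in Cal27 ErlR, against 27.6% of all genes called in either direction, with a list median of 0.78. Both AfaR models had more falls than rises, with 7 against 1 in FaDu (median -0.51, 17.9% of all genes called) and 6 against 4 in Cal27 (median -0.26, 37.6%). FaDu ErlR had 1 of each (median 0.30, 4.18%). EGR1, an immediate early transcription factor, had the largest fall in FaDu AfaR, from 123 and 696 CPM to 60.1 and 32.0 CPM (-3.17, SE 0.68, adjusted p = 0.0161), with parental libraries that were far apart. MYC had the largest fall in Cal27 AfaR, from 422 and 365 CPM to 82.5 and 104 CPM (-2.08, adjusted p = 1.61e-05). The transcription factor KLF6 had the largest rise in both FaDu models, by 0.81 in AfaR (adjusted p = 0.0314) and 0.91 in ErlR (adjusted p = 0.0493), and the receptor EPHA2 the largest fall in FaDu ErlR (-0.48, adjusted p = 0.0304), which was 0.01 and not called with spike-in scaling. The EGR1 call was lost without FaDu AfaR replicate 2. Both KLF6 calls were lost without either FaDu parental library or without replicate 2 of the model (0.48 to 1.07, 0.68 to 1.11). The EPHA2 call was lost whichever FaDu parental or ErlR library was left out (-0.51 to -0.46). VGF, a secreted neuropeptide precursor, had the largest fall in Cal27 ErlR (-0.95, adjusted p = 0.0279). That call was lost without either Cal27 parental library or without Cal27 ErlR replicate 1 (-1.07 to -0.80). EPHA4 had the largest rise in both Cal27 models, from 0 and 3 parental counts. It had 151 and 145 counts in AfaR and 10 and 8 counts in ErlR. The ErlR call of EPHA4 was lost without Cal27 parental replicate 1 or either Cal27 ErlR library. The ratio of pooled, scaled counts was 94.7 in AfaR, with a 95% interval of 32.1 to 462, and 6.43 in ErlR, with 1.88 to 34.1, for counting error alone.

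**Figure D4:**
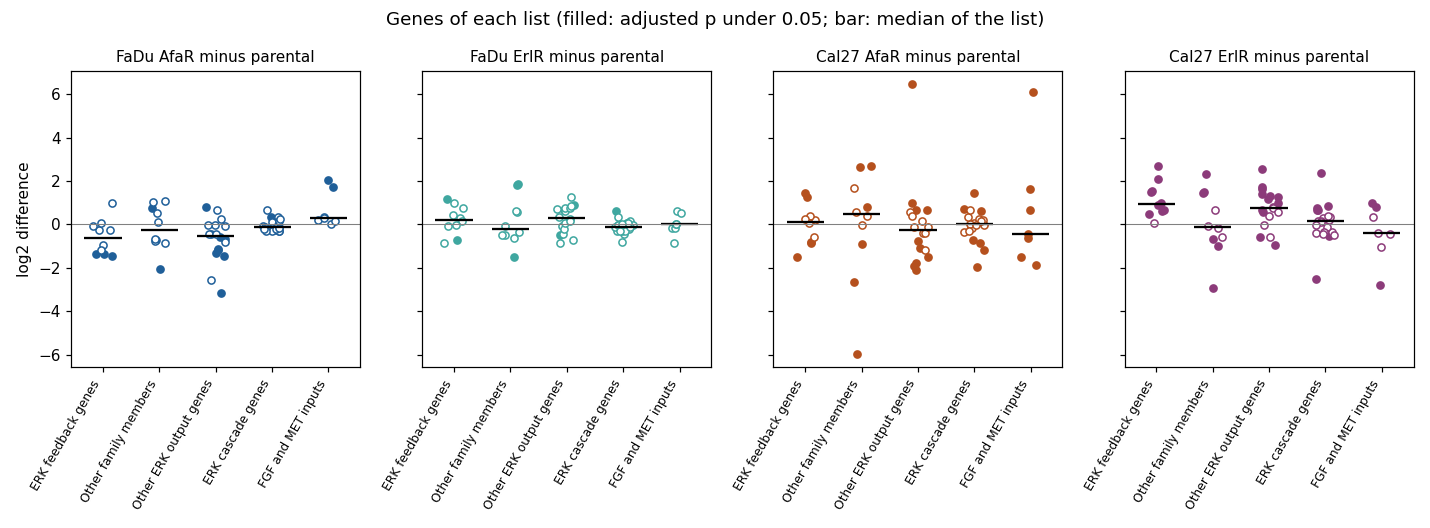
Log2 difference from parental cells (y axis) for the genes of 5 lists in the 4 models, with filled points for an adjusted p under 0.05 and bars for list medians. The ERK feedback genes (median 0.93) and other ERK output genes (0.78) lie mostly above 0 in Cal27 ErlR, while the cascade genes have a median of 0.14. The highest point in Cal27 AfaR is the fitted value of EPHA4, which rests on 3 parental counts.

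Paralogs of the 10 genes gave as many rises as falls in 3 of the 4 models. Of 10 other members of the DUSP, SPRY, SPRED and PEA3 families, 3 were higher and 3 lower in each Cal27 model. FaDu AfaR had 1 higher and 1 lower, and FaDu ErlR had 2 higher and 1 lower. Over all genes 37.6% (AfaR) and 27.6% (ErlR) were called in Cal27, and 17.9% (AfaR) and 4.18% (ErlR) in FaDu. The largest falls were in DUSP9, a cytoplasmic MAP kinase phosphatase, in 3 models. In Cal27 DUSP9 had 16.5 and 18.9 CPM in parental, 0.216 and 0.348 CPM in AfaR and 2.43 and 2.32 CPM in ErlR cells, with differences of -5.94 (adjusted p = 4.45e-06) and -2.92 (adjusted p = 0.000126). Its difference in FaDu ErlR was -1.49 (adjusted p = 0.0279). That call was lost whichever FaDu parental or ErlR library was left out (-1.65 to -1.31). In FaDu AfaR the largest fall was in DUSP2 (-2.04, adjusted p = 0.00415). The largest rises in FaDu were in DUSP16 in AfaR (0.74, adjusted p = 0.0145) and DUSP8 in ErlR (1.87, 0.0361). The DUSP16 call was lost without either FaDu parental library or without FaDu AfaR replicate 2 (0.59 to 0.87). DUSP8 had 0.583 and 0.624 CPM in FaDu parental and 2.11 and 2.35 CPM in FaDu ErlR cells. Its call was lost whichever of these libraries was left out. In Cal27 the largest rises were in SPRED3 in AfaR (2.69, 0.000723) and ETV1, the third PEA3-type factor, in ErlR (2.31, 0.00291).

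In the cascade itself the counts of called genes were near or under the share over all genes in the 4 models. Of 21 genes, 1 was called in each FaDu model, with a rise, and 7 were called in each Cal27 model (3 rises and 4 falls in AfaR, 5 rises and 2 falls in ErlR), where 37.6% of all genes were called in Cal27 AfaR, 27.6% in Cal27 ErlR, 17.9% in FaDu AfaR and 4.18% in FaDu ErlR, with list medians between -0.12 and 0.14. NRAS had 126 and 119 CPM in Cal27 parental and 665 and 609.9 CPM in Cal27 ErlR cells, the largest rise of the list there (2.35, SE 0.15, adjusted p = 5.19e-05). KSR1, a scaffold of RAF, MEK and ERK, had the largest fall in Cal27 ErlR (-2.51, adjusted p = 0.00413). In Cal27 AfaR the adaptor GAB1 rose most (1.45, adjusted p = 0.00394) and the receptor ERBB3 fell most (-1.94, 0.00143). HRAS was the called gene in FaDu ErlR (0.60, adjusted p = 0.0238). That call was lost whichever FaDu parental or ErlR library was left out (0.54 to 0.66). EGFR, the target of both drugs, was the called gene in FaDu AfaR (0.34, adjusted p = 0.0490). It had 546 and 504 CPM in parental and 649.8 and 699 CPM in AfaR cells. The EGFR call was lost without either FaDu parental library or without FaDu AfaR replicate 2 (0.28 to 0.39 over the fits). In Cal27 AfaR EGFR fell from 1325 and 1286 to 716 and 713 CPM (-0.87, adjusted p = 0.00139). The ErlR differences of EGFR were 0.15 in FaDu (interval -0.08 to 0.39) and 0.18 in Cal27 (interval -0.13 to 0.50).

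Among 7 genes of FGF, MET and AXL signalling, FGFR1 had the largest rise in both AfaR models. It had 0.990 and 0.933 CPM in Cal27 parental and 67.8 and 65.1 CPM in Cal27 AfaR cells (6.10, SE 0.22, adjusted p = 9.32e-07), and went from 3.25 and 2.81 to 13.6 and 11.4 CPM in FaDu AfaR (2.03, SE 0.23, adjusted p = 0.00197). FGFR3 had the largest fall in both Cal27 models, by -1.86 in AfaR (adjusted p = 0.00364) and -2.77 in ErlR (adjusted p = 0.00127). AXL had the largest rise in Cal27 ErlR, from 521 and 344 to 886 and 847 CPM (0.98, adjusted p = 0.00540). All 7 were called in Cal27 AfaR, 3 of them higher and 4 of them lower. Cal27 ErlR had 2 higher and 1 lower, and FaDu AfaR had 2 higher. Over all genes 37.6%, 27.6% and 17.9% were called in these 3 models.

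The profile of DUSP6 over the 12 libraries, centred within each line on log2(CPM + 1), was compared with 10571 genes of at least 5 CPM on average. Pearson's r was among the highest with KRR1 (0.971), SYNCRIP (0.970), GTF2F1 (0.967) and BCCIP (0.967). Among the 10 genes, SPRY4 was the most like DUSP6 (r = 0.961, rank 9). It was followed by ETV4 (0.926, rank 132), DUSP5 (0.904, rank 277), SPRED1 (0.885, rank 429), SPRED2 (0.763, rank 1687) and DUSP4 (0.676, rank 2439). Many genes outside the 10 thus ranked closer to DUSP6 than these. ETV5 (0.190, rank 5219) and SPRY2 (0.146, rank 5418) had other profiles, and SPRY1 was under the minimum. Over the 6 libraries of each line, r with SPRY2 was 0.755 in FaDu and -0.259 in Cal27, and r with ETV5 was -0.093 and 0.326. DUSP4 was closer to DUSP6 in FaDu (0.923) than in Cal27 (0.698). These values are descriptions over libraries that share their group structure, with the Cal27 ErlR libraries high in DUSP6 and the Cal27 AfaR libraries low.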

How the data were processed

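Poly(A) RNA of 12 libraries was analysed. For each library the authors deposited raw read counts by Ensembl gene. The submitters' processing notes name Trimmomatic 0.36, STAR 2.5.2b, featureCounts of Subread 1.5.2 and GRCh38, and the annotation release and strand setting are not given in the sources used here. The deposited normalized tables, and the authors' fold changes and p-values in them, were not used. Of 58051 genes, 56948 were found in GENCODE by identifier. The 92 ERCC spike-ins, at 3.86% to 5.82% of reads, stayed out of library sizes.

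The test was edgeR 4.0.16 under R 4.3.3 (TMM, filterByExpr, glmQLFit, glmQLFTest, Benjamini-Hochberg adjustment), over 6 libraries per line (15092 genes tested in FaDu, 15269 in Cal27, 3 residual degrees of freedom) or over 12 libraries (16240 genes). The FaDu fit had a biological coefficient of variation of 14.5% and the Cal27 fit one of 15.3%. The replicates are labelled as biological, with no statement of separate cultures, so p-values measure the spread between these samples. No replicate pair agreed within sampling noise (chi-square per degree of freedom of 12.7 to 26.7). TPM used the counted gene lengths in the files. The script was tested on simulated data.

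The 10 genes and the lists were chosen with earlier results of these data known. The other genes named are, for each list and model, the called genes with the largest rise and fall, the 5 genes most like DUSP6 (1 of them is not reported here), and EGFR. VIM and other markers were named after their values were seen. Alternatives were DESeq2 1.42.0, 2 filters, upper-quartile and spike-in scaling, a replicate block, other thresholds, other sets of libraries, and leaving out each library.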

Additional observations from a re-analysis of the deposited data

Results flagged for a closer look

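The difference between a resistant model and its parental cells differed between the lines in 6 of the 20 interaction tests on the 10 genes. Over all genes tested, 18.6% were called for AfaR and 18.6% for ErlR. These were edgeR quasi-likelihood tests over 12 libraries. Each model is a single derived stock, so the tests compare these stocks. Selection, drug exposure and drug withdrawal cannot be told apart in them. For AfaR, the FaDu effect minus the Cal27 effect was -1.12 in DUSP4 (adjusted p = 0.0333), -1.52 in SPRY2 (adjusted p = 0.00573) and -1.49 in ETV5 (adjusted p = 0.0475). Leaving out single libraries ended the calls of DUSP4 (-1.38 to -0.87) and ETV5 (-2.23 to -0.98), and SPRY2 was called in every such fit (-1.63 to -1.41). For ErlR, the difference was -2.19 in DUSP5 (adjusted p = 0.00153), -1.83 in DUSP6 (adjusted p = 0.00482) and -2.40 in ETV5 (adjusted p = 0.00614). These 3 were called whichever library was left out, with ranges of -2.64 to -1.85, -2.43 to -1.41 and -2.96 to -2.002. The FaDu ErlR libraries were shallower than the FaDu parental ones, with a lower share of spike-in reads. The part of this in the ErlR interactions was not tested. Spike-in scaling shifted the median ErlR interaction of all genes by 0.47, so the ErlR sizes are relative to the bulk of expressed genes. Under it 3765 genes were called higher and 283 lower, against 1592 and 1429 with TMM. The test for an outlying sample needs 4 samples in a group and was not made on groups of 2.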

How the results depend on the processing

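With 2 libraries per group, the counts of called genes were less stable than their directions. The count of the 10 genes called in FaDu AfaR was 5 with DESeq2 (18.4% of all genes called), with no filter on low counts (12.8%), with only the 4 libraries compared (17.6%) and with an unadjusted p under 0.05 (35.2%), in place of 3 (17.9%), and between 1 and 3 when a library was left out. In FaDu ErlR the count of 2 (4.18% of all genes) became 4 with no filter (6.02%), 5 with spike-in scaling (38.1%), 1 with only the 4 libraries compared (4.94%), with all 12 libraries in 1 fit (4.39%), with the replicate block (2.9%) or with a log2 change over 1 required (2.05%), 0 with glmTreat against a fold change of 1.2 (1.33%), and 0 to 2 when a library was left out. Requiring a log2 change over 1 left 3 of 5 genes in Cal27 AfaR, 4 of 9 in Cal27 ErlR, 3 of 5 between the parental lines and 4 of 7 between Cal27 AfaR and Cal27 ErlR. Leaving out a library gave 4 to 5 genes in Cal27 AfaR, 6 to 8 in Cal27 ErlR, 4 to 5 between the parental lines, 0 to 6 between FaDu AfaR and FaDu ErlR, 5 to 6 between Cal27 AfaR and Cal27 ErlR, 1 to 3 for the AfaR interaction and 3 to 5 for the ErlR interaction. Such fits have fewer samples, and a lone library is assumed to vary like the other groups. In every comparison they called a smaller share of all genes than the main fit, so the lower counts are not particular to the 10 genes. Between FaDu AfaR and FaDu ErlR the count of 5 was 8 with spike-in scaling (28.2%) or an unadjusted p (33%). The AfaR interaction count of 3 (18.6%) was 1 with glmTreat (14.1%). The ErlR interaction count of 3 (18.6%) was 5 with no filter (10.9%) and 6 with an unadjusted p (33.1%). The cause of the changes under other tools, filters and scalings was not tested.

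Of 1526 recomputed values of single genes, 1336 kept their direction and their side of the threshold, 128 lost a call, 32 gained one and 30 changed sign. With spike-in scaling the sign changed for ETV5 in FaDu AfaR (0.097), DUSP4 (0.37), ETV4 (0.46) and EPHA2 (0.0075) in FaDu ErlR, SPRED1 (0.23) and ETV4 (0.50) between the parental lines and SPRY1 between FaDu AfaR and FaDu ErlR (-0.10). ETV4 in FaDu ErlR was 0.0018 with all 12 libraries in 1 fit, and ETV5 between Cal27 AfaR and Cal27 ErlR was 0.0068 with upper-quartile scaling. EPHA2 was the 1 called value among these. Leaving out a library moved uncalled values across 0. In FaDu AfaR these were SPRED2 (-0.060 to 0.15) and ETV5 (-0.83 to 0.42). In FaDu ErlR they were DUSP4 (-0.62 to 0.31), DUSP6 (-0.32 to 0.70), SPRY4 (-0.060 to 1.59), SPRED1 (-0.089 to 0.35) and ETV4 (-0.31 to 0.24). In Cal27 they were SPRY1 (-0.0062 to 0.74) and SPRED1 (-0.089 to 0.21) in AfaR, SPRY1 in ErlR (-0.057 to 0.26), and SPRY1 (-0.089 to 0.64) and ETV5 (-0.27 to 0.080) between the models. Between the parental lines they were SPRED2 (-0.13 to 0.37) and ETV4 (-0.31 to 0.13), and for the AfaR interaction SPRED2 (-0.47 to 0.033) and ETV4 (-0.29 to 0.54).

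The labels do not say that equal replicate numbers mark a shared culture, and the replicate differences of 2 groups correlated by -0.17 to 0.17, so the numbers were not taken to pair the samples. With the replicate number as a block, the 10 genes gave 7 calls in Cal27 ErlR (24.2% of all genes) and 5 in Cal27 AfaR (34.3%). The FaDu models had 3 calls (AfaR, 15.5%) and 1 call (ErlR, 2.9%). Depth limits SPRY1 in FaDu, with at most 17 counts in a library.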
